A study of Mus musculus with 55 samples.

Results

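Fibcd1, Spink8, Wfs1, Pou3f1, Mpped1 and Man1a, 6 genes used as markers of CA1 pyramidal neurons, were followed in RNA-seq libraries of the ventral dentate gyrus. They were chosen by name as a sign of CA1 tissue in a dentate punch and were found by symbol among the 45318 genes of the deposited tables, and all 6 passed the low-count filter that left 18283 genes for testing. The mice were male C57BL/6J mice assigned when young to standard housing (SH) or to an enriched environment (EE), a larger shared cage with tunnels, objects and running wheels. They stayed in this housing for weeks, until the stress phase. Adult mice then either stayed unstressed as controls or went through chronic social defeat stress (CSDS), repeated defeat by CD-1 aggressors, after which a social interaction test sorted them into resilient (RES) and susceptible (SUS) mice. The groups held 10 SH control, 7 SH RES, 10 SH SUS, 9 EE control, 9 EE RES and 9 EE SUS mice, 54 in all, each from punches of its own tissue without pooling. EE control mouse 9 was sequenced in 2 runs, which were summed. RES and SUS were assigned by behavior after defeat, so these groups are selected and not randomized.

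The hippocampal circuit runs from dentate granule cells over their mossy fibers to CA3 pyramidal neurons, and from CA3 to the pyramidal neurons of CA1, which send the main output of the hippocampus. CA1 lies beside the dentate gyrus, so a punch aimed at the dentate gyrus can take in CA1 cell bodies, and its pyramidal neurons are known for genes that granule cells hardly use. Among the members, Fibcd1 is a membrane receptor for acetylated sugars such as chitin, Spink8 belongs to the Kazal-type serine protease inhibitors, and Wfs1 encodes wolframin of the endoplasmic reticulum membrane. Pou3f1 is a POU-family transcription factor, Mpped1 carries a metallophosphoesterase domain, and Man1a is a Golgi mannosidase that trims N-glycans. In bulk tissue, a lower level can mean fewer cells of a type or less RNA per cell, and the data cannot tell them apart.

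In the GRCm38 annotation the genes lie on 6 chromosomes, Fibcd1 (ENSMUSG00000026841) on chromosome 2 (31813290 to 31846005, minus strand), Pou3f1 (ENSMUSG00000090125) on chromosome 4 (124656807 to 124660655, plus), Wfs1 (ENSMUSG00000039474) on chromosome 5 (36966104 to 36989205, minus), Spink8 (ENSMUSG00000050074) on chromosome 9 (109812280 to 109826633, plus), Man1a (ENSMUSG00000003746) on chromosome 10 (53904785 to 54076609, minus) and Mpped1 (ENSMUSG00000041708) on chromosome 15 (83779467 to 83858494, plus). Each is protein coding, and the counts are of exons. An antisense gene, Gm2164, overlaps Pou3f1 and took 448 counts over the 54 mice against 4506 for Pou3f1, and Gm16998 overlaps Man1a on the other strand with 167 counts against 35739. RefSeq promoters (GRCm38.p6) were at hand for 4 of the 6 members in 5 windows of 250 bases before a transcription start, and Spink8 and Pou3f1 were not matched.

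The promoters of Fibcd1 and Mpped1 are shown because these genes varied together over mice, as described after the group comparisons, and because the starts of Mpped1 differ in base composition. Each is written 5′ to 3′ up to the RefSeq start, or to the first base in the window that an annotated exon of the gene covers, with CpG dinucleotides in capitals. Both Mpped1 windows lie inside the annotated span of the gene, downstream of its first base. The Fibcd1 sequence is chr2:31846006-31846255 on the minus strand, and those of Mpped1 are chr15:83779773-83779981 and chr15:83784579-83784828 on the plus strand.
Fibcd1: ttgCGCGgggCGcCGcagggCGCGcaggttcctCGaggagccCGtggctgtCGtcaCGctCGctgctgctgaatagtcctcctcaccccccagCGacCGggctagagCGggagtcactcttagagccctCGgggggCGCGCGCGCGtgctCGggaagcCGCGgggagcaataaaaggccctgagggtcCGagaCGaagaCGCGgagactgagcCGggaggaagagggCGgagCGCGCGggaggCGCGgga
Mpped1, first start: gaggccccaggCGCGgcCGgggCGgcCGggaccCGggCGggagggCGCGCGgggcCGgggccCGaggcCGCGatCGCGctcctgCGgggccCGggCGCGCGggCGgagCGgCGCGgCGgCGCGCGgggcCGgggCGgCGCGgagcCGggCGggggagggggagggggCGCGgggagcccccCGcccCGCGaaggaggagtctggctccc
Mpped1, second start: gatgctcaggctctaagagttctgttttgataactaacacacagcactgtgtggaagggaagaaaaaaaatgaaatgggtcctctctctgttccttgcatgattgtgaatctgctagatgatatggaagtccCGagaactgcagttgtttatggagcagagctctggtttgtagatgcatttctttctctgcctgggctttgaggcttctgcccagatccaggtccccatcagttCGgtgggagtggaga
The Fibcd1 window held 34 CpG in 250 bases, more than 96.5% of the 32851 mouse promoters of the same length, whose median was 6. Over its full 250 bases the first start of Mpped1 held 47 CpG at 88.8% GC, more than 99.8% of promoters, and its second start held 2 at 46.8% GC. The windows of Man1a and Wfs1 held 31 and 23 CpG. Neither the octamer ATGCAAAT, bound by POU factors, nor the TATA box TATAAA was found on either strand in the 5 windows, and 1.60% and 12.4% of all promoters held them. These letters are a description of the windows only, and nothing about the binding of a factor follows from their absence.

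Per kilobase of exon, Mpped1 was the most abundant member with a median of 12.1 CPM per kb (CPM, counts scaled to library size with TMM factors). Fibcd1 followed with 6.10, Wfs1 with 4.71, Man1a with 3.01, Spink8 with 2.95 and Pou3f1 with 0.950 CPM per kb. The markers of granule cells were present in every punch, with a summed level of 8 genes between 467 and 1014 CPM. The libraries held 32223034 to 49990637 read pairs and 16760009 to 45872357 counts on genes per mouse.

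The members differed far more between single mice than between groups. Fibcd1 ranged from 10.2 CPM in an SH RES mouse over a median of 29.0 to 129.9 CPM in SH control mouse 3, a 12.7-fold range. Its SD on the log2 scale, 0.97, was larger than that of 99.6% of tested genes, whose median SD was 0.16. Spink8 went from 0.215 CPM (4 counts, in EE control mouse 8) over 2.42 to 11.5 CPM, where so low a count leaves the lower end imprecise.

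Pou3f1, Mpped1, Man1a and Wfs1 spread less, yet their SD was larger than that of 93.1% (Wfs1) to 99.7% (Mpped1) of genes of like level. Pou3f1 ran from 1.15 over a median of 3.66 to 7.11 CPM. For Mpped1 the lowest, median and highest levels were 27.4, 51.8 and 108 CPM, and for Man1a 20.3, 29.0 and 44.9 CPM. Wfs1 was the steadiest, between 14.0 and 24.96 CPM around a median of 17.8 in all but 2 mice, which had 26.5 and, in EE RES mouse 9, 34.0 CPM. The 2 runs of EE control mouse 9 differed by at most 1.13-fold in the 6 members.

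Group membership accounted for 6.45% to 9.49% of the variance of log2 CPM in 5 members and for 17.6% in Wfs1, beside a median of 9.64% over all tested genes. The levels of all 6 groups overlapped for each member. This is seen in the plot of levels by mouse and group.

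**Figure D1:**
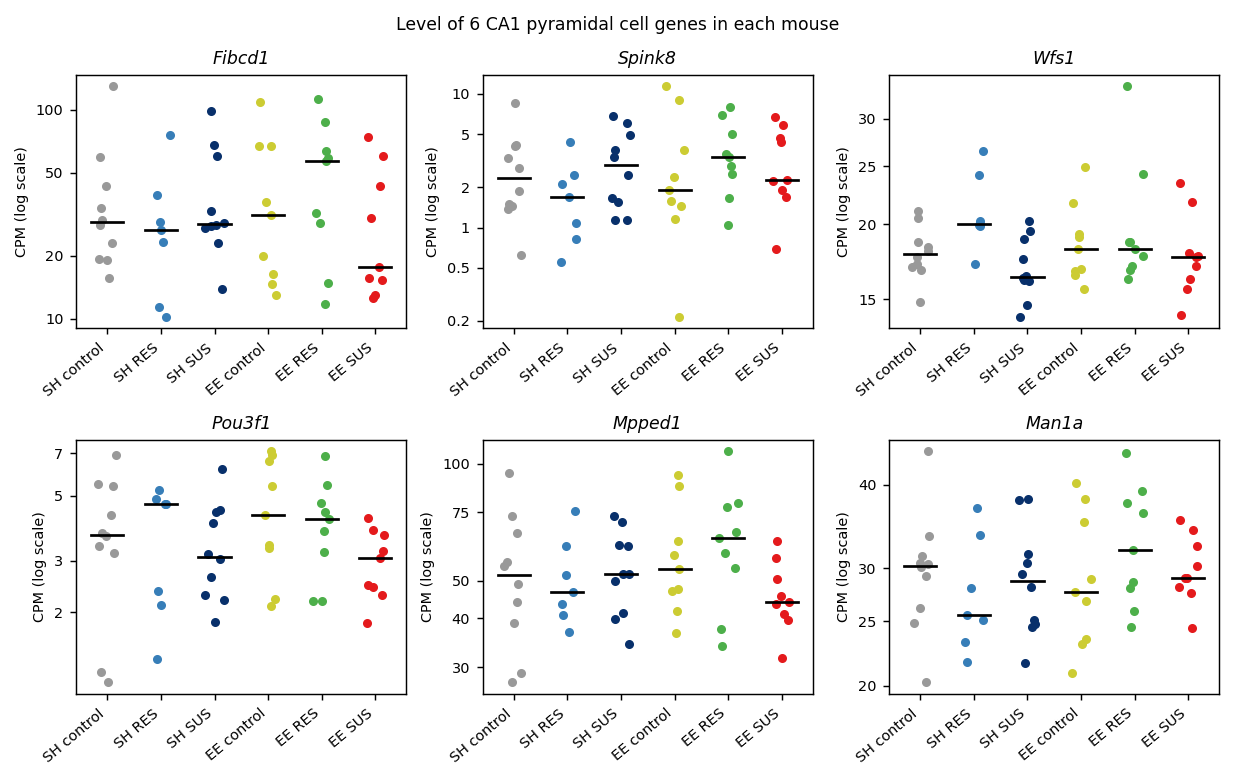
Level of each member in CPM (log scale) in the 54 mice by group, with 1 point per mouse and a line at the group median. In every panel the groups overlap, with Fibcd1 medians between 17.6 and 56.8 CPM and Wfs1 medians between 16.4 and 20.0 CPM.

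For Fibcd1 the lowest, median and highest levels were 15.7, 29.0 and 129.9 CPM in SH control, 10.2, 26.7 and 76.1 in SH RES, 13.9, 28.3 and 98.4 in SH SUS, 13.0, 31.3 and 109 in EE control, 11.8, 56.8 and 112 in EE RES and 12.6, 17.6 and 73.8 in EE SUS mice. In the order of medians, EE RES stood first and EE SUS last, with every group holding both low and high mice. Spink8, in the same groups in turn, had 0.621, 2.34 and 8.50, then 0.550, 1.68 and 4.35, then 1.13, 2.93 and 6.84, then 0.215, 1.91 and 11.5, then 1.04, 3.38 and 8.03, and in EE SUS 0.686, 2.26 and 6.73 CPM. EE RES again had the highest median, and SH RES the lowest.

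Mpped1 showed 27.4, 51.7 and 94.8 CPM in SH control, 36.8, 46.8 and 75.5 in SH RES, 34.4, 52.1 and 73.3 in SH SUS, 36.8, 53.6 and 93.7 in EE control, 33.9, 64.2 and 108 in EE RES and 31.7, 44.2 and 63.1 in EE SUS mice. The EE SUS mice lay in the lower part of this range, below the higher EE RES mice. Pou3f1 medians were 3.68, 4.69 and 3.10 CPM in SH control, RES and SUS mice and 4.29, 4.17 and 3.06 CPM in the EE groups in the same order. Man1a medians stayed between 25.5 CPM in SH RES and 31.9 CPM in EE RES mice.

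Wfs1 had nearly the order of Pou3f1 by median, with SH RES first and the SUS groups last. Its lowest, median and highest levels were 14.8, 17.8 and 21.0 CPM in SH control, 17.2, 20.0 and 26.5 in SH RES, 14.0, 16.4 and 20.3 in SH SUS, 15.6, 18.2 and 24.96 in EE control, 16.2, 18.2 and 34.0 in EE RES and 14.1, 17.6 and 23.4 CPM in EE SUS mice. SH RES mice were highest and SH SUS mice lowest. Among neighbors in the orders of medians, no pair of any member had an adjusted p below the 0.05 threshold (edgeR), and the smallest unadjusted p was 0.0626, for Spink8 in EE control against SH RES mice.

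No member was called by the edgeR quasi-likelihood test at an adjusted p below 0.05 in any comparison. Across the 6 groups, 57 of 18283 genes (0.312%) were called and 0 of 6 members, with the smallest adjusted member p at 0.492 for Wfs1 (unadjusted p = 0.0615, edgeR). At an unadjusted p below 0.05, edgeR and limma-voom each counted 0 members and DESeq2 counted 1, Wfs1, beside 1996 genes (10.9%) in edgeR. In the 15 pairwise comparisons of groups, the smallest adjusted p of a member was 0.312, for Wfs1 in EE SUS against SH RES mice.

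The question of the study, how susceptible and resilient animals differ, was asked within each housing. In SH, edgeR called 0.0% of all genes and 0 of 6 members, and limma-voom and DESeq2 called 0 genes. In edgeR, 871 genes (4.76%) had an unadjusted p below 0.05. Wfs1 had 16.4 CPM as its median in SUS and 20.0 CPM in RES mice, a log2 difference of -0.32 ± 0.11 (SE, 95% confidence interval -0.54 to -0.09), with an unadjusted p of 0.00627 and an adjusted p of 0.938 in edgeR. It was the only member at an unadjusted p below 0.05 in edgeR, limma-voom and DESeq2 alike. The log2 differences of the other 5 members ran from -0.07 for Pou3f1 to 0.82 ± 0.55 (SE) for Spink8, whose interval reached from -0.29 to 1.92. That of Fibcd1, 0.41, ran from 0.16 without SH SUS mouse 6 to 0.80 without SH RES mouse 6.

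Of the members, 4 of 6 were higher in SH SUS than in SH RES mice, with a median log2 difference of 0.07 beside 0.00 over all genes. Markers of CA3 and CA2 pyramidal neurons stood higher in SH SUS mice in 7 of 9 genes, with a median log2 difference of 0.16, 3 genes at an unadjusted p below 0.05 and 0 past the adjusted threshold in edgeR. With the mean z-score of these 9 genes as a covariate, the SH difference of Spink8 became -0.03, that of Fibcd1 went from 0.41 to 0.04 and that of Wfs1 was -0.24. The summed level of this list ran from 354 to 398 CPM in SH RES and from 366 to 490 CPM in SH SUS mice. All 6 choroid plexus genes also stood higher in SH SUS mice, by a median of 2.40, with sums of at most 23.5 CPM in SH RES and up to 360 CPM in SH SUS mice. The median sums were close, 21.3 CPM in SH RES and 23.2 CPM in SH SUS mice. Only SH SUS mice 3 and 7 were above 100 CPM. The covariate fit describes these shifts only, and whether either list was a cause of the member differences was not tested.

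In EE, all 6 members were lower in SUS than in RES mice, none of them past the adjusted threshold. For this threshold the background was 0.0% of genes in edgeR, with 0 genes called by limma-voom and DESeq2. At an unadjusted p below 0.05, edgeR counted 629 genes (3.44%). The median log2 difference of the members was -0.33 beside 0.00 over all genes. As 5 of the members varied together over mice, described below, their shared direction is not a set of independent observations. Mpped1, with medians of 44.2 and 64.2 CPM, differed by -0.47 ± 0.21 (SE, 95% confidence interval -0.89 to -0.06) on the log2 scale, with an unadjusted p of 0.0265 and an adjusted p of 0.9997 (edgeR). It was below 0.05 before adjustment by limma-voom and DESeq2 too. Fibcd1 had the widest difference, -0.72 ± 0.47 (SE), with an interval from -1.67 to 0.22, so that neither a large fall nor a small rise could be told from the spread between mice. The differences were -0.44 for Pou3f1, -0.22 for Spink8, -0.16 for Wfs1 and -0.13 for Man1a. Single mice moved some of these, since Spink8 differed by -0.0136 without EE RES mouse 3 (-0.40 without EE SUS mouse 1) and Wfs1 by -0.0354 without EE RES mouse 9, and Man1a by -0.0685 without EE RES mouse 3.

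By the criterion of the study, an unadjusted p below 0.05 with a fold change above 1.3 in limma-voom, 0 of 6 members were counted in SH and 1 of 6, Mpped1, in EE (1.34-fold, unadjusted p = 0.0385, limma). This criterion took 209 genes (1.14%) in SH and 201 genes (1.1%) in EE. Wfs1 in SH missed it through its fold of 1.24 in limma. With 6 members, 1 is the lowest count above 0, and it rests on an unadjusted p.

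Other markers moved beside the members in the EE contrast. Of the 5 other CA1 and pyramidal genes, 1 was higher in EE SUS mice, with a median log2 difference of -0.19 and 1 gene at an unadjusted p below 0.05. Of 6 GABA interneuron genes 1 was higher as well, with a median of -0.06 and 1 gene at an unadjusted p below 0.05. The 5 thalamus genes were all higher in EE SUS mice by a median of 0.55 (log2), with a summed level of 17.1 to 227 CPM in EE RES and 37.3 to 208 CPM in EE SUS mice. All 6 choroid plexus genes were higher by a median of 0.74, with sums between 16.6 and 304 CPM in EE RES and between 19.1 and 536 CPM in EE SUS mice. The median sums, again mostly Kl, were close, 20.3 and 20.7 CPM, and only mouse 3 of each group was above 100 CPM. None of the markers on these lists passed the adjusted threshold, and their part in the member differences was not tested.

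Whether housing changed the SUS to RES difference was tested as an interaction, for which edgeR called 0.0% of genes and 0 of 6 members. Neither did limma-voom or DESeq2 call any gene, and at an unadjusted p below 0.05 edgeR counted 869 genes (4.75%) and 0 members. The EE difference was below the SH difference for 5 of 6 members. Mpped1 had the smallest unadjusted p, with an interaction of -0.55 ± 0.30 (SE) on the log2 scale (95% confidence interval -1.16 to 0.05, p = 0.0731, adjusted p = 0.981, edgeR). Fibcd1 and Spink8 had -1.13 and -1.04 with intervals that included 0.

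**Figure D2:**
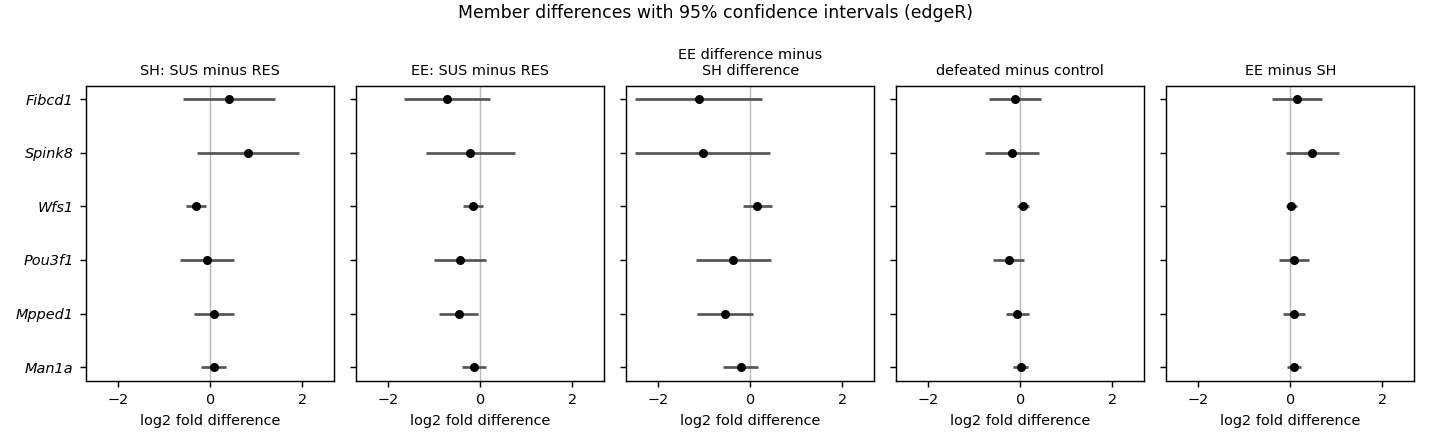
Log2 differences of the 6 members (points) with 95% confidence intervals (lines) from the edgeR model of 54 mice, with 1 panel per comparison. In EE all points for SUS minus RES lie below 0, and the intervals that leave out 0 are those of Wfs1 in SH and Mpped1 in EE, before adjustment over genes.

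Defeated mice were also compared with unstressed mice of both housings. The test called 8 genes (0.0438%) and 0 of 6 members, of which 2 were higher in defeated mice. Member differences lay between -0.25 ± 0.17 (SE) for Pou3f1 and 0.05 for Wfs1 on the log2 scale. The smallest unadjusted p was 0.133, for Pou3f1 (adjusted p = 0.989, edgeR). Against controls of their own housing, EE SUS mice differed in Pou3f1 by -0.61 ± 0.28 (SE) with an unadjusted p of 0.0345 and an adjusted p of 0.607 in edgeR, where 7.73% of genes had an unadjusted p below 0.05. In limma-voom the difference was -0.52 with an unadjusted p of 0.0705. SH RES mice differed from their controls in Wfs1 by 0.23 ± 0.11 (SE) with an unadjusted p of 0.0401 and an adjusted p of 0.9999 in edgeR, beside 3.41% of genes at an unadjusted p below 0.05, and limma-voom gave an unadjusted p of 0.0331. Beside this comparison, all 5 thalamus genes were higher in defeated mice by a median of 0.46 (log2), 4 of them at an unadjusted p below 0.05, and all 6 choroid plexus genes were lower with a median of -0.92, and 0 were past the adjusted threshold in either list (edgeR). The median choroid plexus sums, mostly Kl, were close, 22.1 and 21.6 CPM in SH and EE control mice and 20.3 to 23.2 CPM in the defeated groups.

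Between EE and SH mice, 415 genes (2.27%) were called but 0 of 6 members. All 6 were higher in EE mice, by a median of 0.09 on the log2 scale beside 0.00 over all genes, from 0.02 for Wfs1 to 0.48 ± 0.29 (SE) for Spink8. These directions are not independent either, since 5 of the members varied together over mice. The interval of Spink8 ran from -0.10 to 1.06 (unadjusted p = 0.105, adjusted p = 0.405, edgeR). At an unadjusted p below 0.05, 0 members were counted by edgeR, limma-voom and DESeq2, against 17.5% of all genes in edgeR. All 5 oligodendrocyte genes were also higher in EE mice, by a median of 0.27 (log2), each at an unadjusted p below 0.05 and 0 past the adjusted threshold (edgeR), and their part in the member differences was not tested. The narrow intervals of Wfs1 (-0.10 to 0.15) and Man1a (-0.07 to 0.24) left room for small differences only.

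The other gene lists gave a backdrop to these counts. Of 5 other genes of CA1 or of pyramidal neurons in general (among them Ccn3, Neurod6, Crym and Tyro3), 0 were called in any of these comparisons. In EE against SH mice, 3 of 8 granule cell markers fell, Dsp by 0.30, Tdo2 by 0.28 and Npnt by 0.33 on the log2 scale, and of the CA3 and CA2 list Rgs14, a signaling regulator of CA2 neurons, fell by 0.20 (adjusted p between 0.00214 and 0.0411, edgeR). Flt1, a receptor of endothelial cells, rose by 0.23 in EE mice. Npnt and Rgs14 were also called across the 6 groups, and no other gene of the lists was called in these comparisons.

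While the groups did not set them apart, 5 of the 6 members rose and fell together from mouse to mouse. Over the 54 mice, the 10 pairs among Fibcd1, Spink8, Pou3f1, Mpped1 and Man1a had Pearson r between 0.37 and 0.83 in log2 CPM. The closest pair was Pou3f1 and Mpped1 (r = 0.83, Spearman rho = 0.82), followed by Fibcd1 and Mpped1 (r = 0.78, rho = 0.76) and Spink8 and Man1a (r = 0.77, rho = 0.75). Each of these 3 had a two-sided permutation p of 1e-05, the smallest that 100000 resamples can give, and an adjusted p of 6.36e-05 over 105 relations.

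The weakest of the 10 pairs was Spink8 and Pou3f1 (r = 0.37, adjusted permutation p = 0.0181; rho = 0.29, adjusted permutation p = 0.0780). With group means removed, the 10 pairs kept r between 0.40 and 0.82, and without the 2 mice farthest from the median between 0.34 and 0.79. Within the 6 groups, 8 of the 10 pairs had a positive r in every group. The exceptions were Spink8 with Pou3f1 and Pou3f1 with Man1a, whose r in EE SUS mice were -0.36 and -0.25.

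Over all mice, Wfs1 stood apart from the other members. Its r with them ran from -0.26 for Spink8 to 0.31 for Mpped1, and 0 of its 5 pairs reached an adjusted permutation p below 0.05 (smallest 0.0531, for Mpped1). Within the 6 groups, its r was positive in 5 with Mpped1 (-0.10 to 0.49) and in 4 with Pou3f1 (-0.23 to 0.70). With Spink8 it was positive in 2 groups (-0.59 to 0.25). A first principal component of the 6 z-scored members held 59.6% of their variance, with loadings between 0.41 and 0.49 for the 5 and 0.08 for Wfs1, which led the second component (22.1%, loading 0.78).

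**Figure D3:**
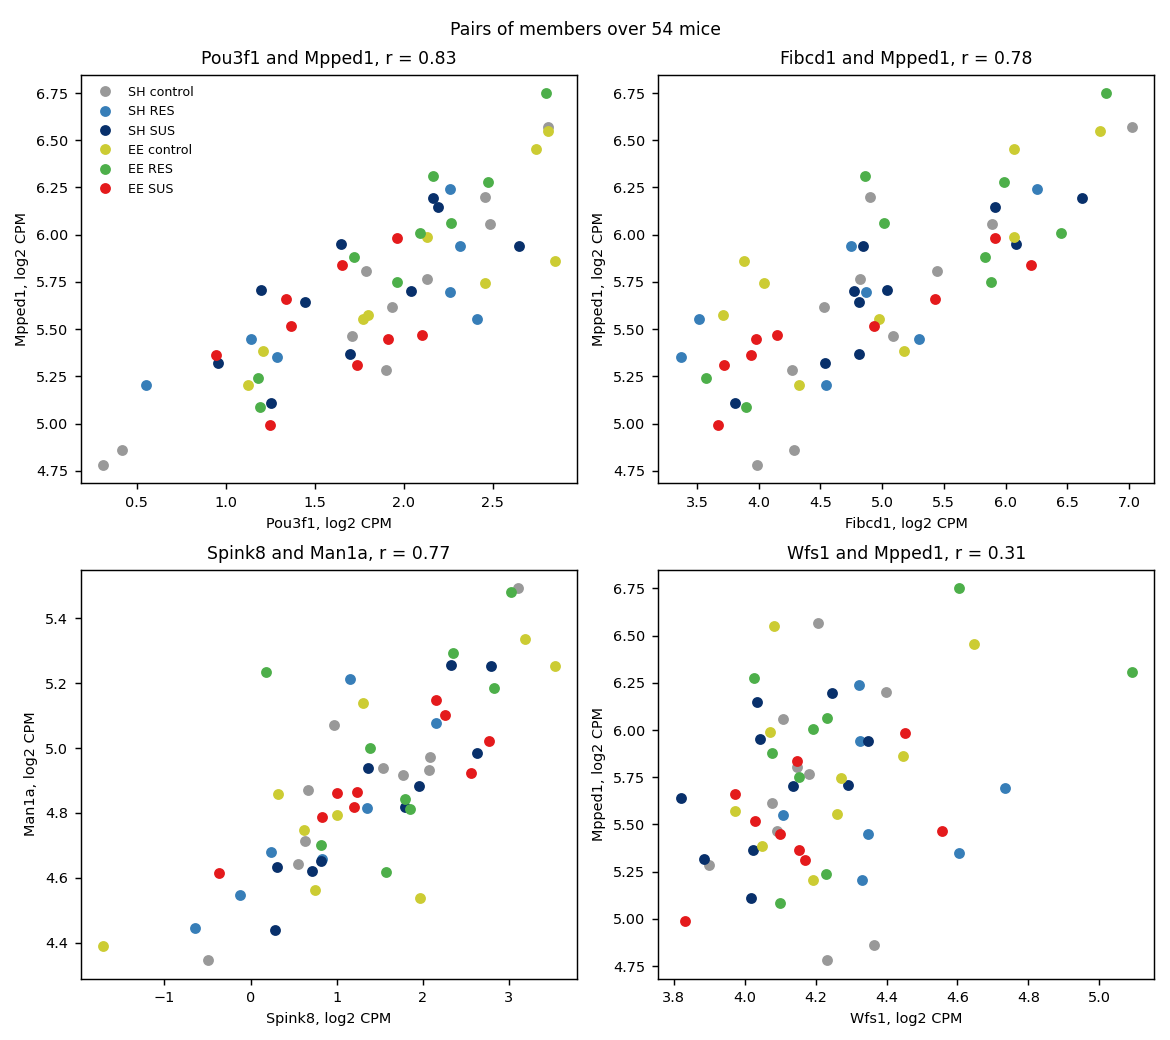
Log2 CPM of 4 pairs of members in 54 mice, colored by group. The pairs of Pou3f1, Fibcd1, Spink8, Mpped1 and Man1a shown rise together with r from 0.77 to 0.83, while Wfs1 and Mpped1 scatter with r = 0.31.

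Single mice showed the shared rise of the 5 genes. SH control mouse 3 had 129.9 CPM of Fibcd1, 94.8 of Mpped1, 44.9 of Man1a, 8.50 of Spink8 and 6.92 of Pou3f1, but 18.4 CPM of Wfs1, close to its median. EE RES mouse 1 likewise had 112, 108, 39.1, 4.99 and 6.88 CPM, with Wfs1 at 24.2 CPM. In 5 of 54 mice, 4 or 5 of the 5 genes were among the 10 highest values, 1 each in SH control, SH SUS and EE control and 2 in EE RES. In 4 mice, 1 each in SH control, SH RES, EE control and EE RES, 4 or 5 were among the 10 lowest.

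Each member was also set against the other CA1 and pyramidal list, scored as a mean z-score. The r was 0.74 for Fibcd1, 0.77 for Spink8, 0.64 for Pou3f1, 0.82 for Mpped1 and 0.84 for Man1a (each adjusted permutation p = 6.36e-05), and 0.15 for Wfs1 (adjusted permutation p = 0.440). So 5 members moved with the score of this list over these punches, while Wfs1 did not. Members and list were chosen with earlier results of these data known, so this is a description and no independent check of the label. The markers share libraries, scaling and tissue, so their scores are not independent of each other.

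Granule cell markers moved the other way from Spink8, Man1a, Fibcd1 and Mpped1 over all mice. The r of their score was -0.77 with Spink8 and -0.65 with Man1a (each adjusted permutation p = 6.36e-05), -0.40 with Fibcd1 (adjusted permutation p = 0.00983) and -0.32 with Mpped1 (adjusted permutation p = 0.0460, for rho 0.0768). Pou3f1 had -0.24 and Wfs1 0.24, both short of the threshold. Within the 6 groups, this r was negative in each for Spink8 and Man1a, though near 0 in SH RES mice (-0.03 and -0.08). That of Fibcd1 ran from -0.86 in SH control to 0.35 in SH RES mice. For Mpped1 it was -0.75 in SH control and -0.65 in EE control mice, but between -0.23 and 0.09 in the defeated groups. The score of the 4 mossy cell markers was lower where Fibcd1, Spink8, Mpped1 and Man1a were high (r from -0.34 to -0.48). Its genes were not alike. Their r with the mean z-score of the 6 members was -0.43 for Calb2, -0.35 for Drd2 and -0.25 for Calcrl, but 0.17 for Ajap1. Within groups, the r of this score ran from -0.70 to 0.29 with Fibcd1 and from -0.52 to 0.16 with Mpped1.

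CA3 and CA2 markers divided the members. Their score rose with Spink8 (r = 0.65, adjusted permutation p = 6.36e-05) and Man1a (r = 0.45, adjusted permutation p = 0.00302), fell with Wfs1 (r = -0.37, adjusted permutation p = 0.0186), and had r of -0.02 with Mpped1 and -0.18 with Pou3f1. Fibcd1 lay between with 0.32 (adjusted permutation p = 0.0486, for rho 0.0768). Oligodendrocyte markers rose with Spink8 (r = 0.53, adjusted permutation p = 0.000307) and, by r alone, with Man1a (r = 0.32). Thalamus markers fell with Pou3f1 and Mpped1 (r = -0.43 and -0.42, each adjusted permutation p = 0.00486) and had r of -0.06 with Spink8.

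GABA interneuron markers rose with the same 5 genes (r from 0.40 for Pou3f1, adjusted permutation p = 0.00886, to 0.67 for Spink8). Choroid plexus markers rose with Spink8 (r = 0.59), Fibcd1 (r = 0.46) and Man1a (r = 0.43), with adjusted permutation p of 0.00331 or less, and for Man1a r was 0.25 without the 2 farthest mice. This list summed to under 100 CPM in 48 mice and reached 978 CPM in SH control mouse 3, the mouse of highest Fibcd1. Without the 6 mice above 100 CPM, chosen after seeing the data, the 10 pairs had r between 0.35 and 0.83. Microglia markers fell with Fibcd1 (r = -0.36), and astrocyte and endothelial markers passed the threshold with none of the members. The map of correlations shows these values side by side.

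**Figure D4:**
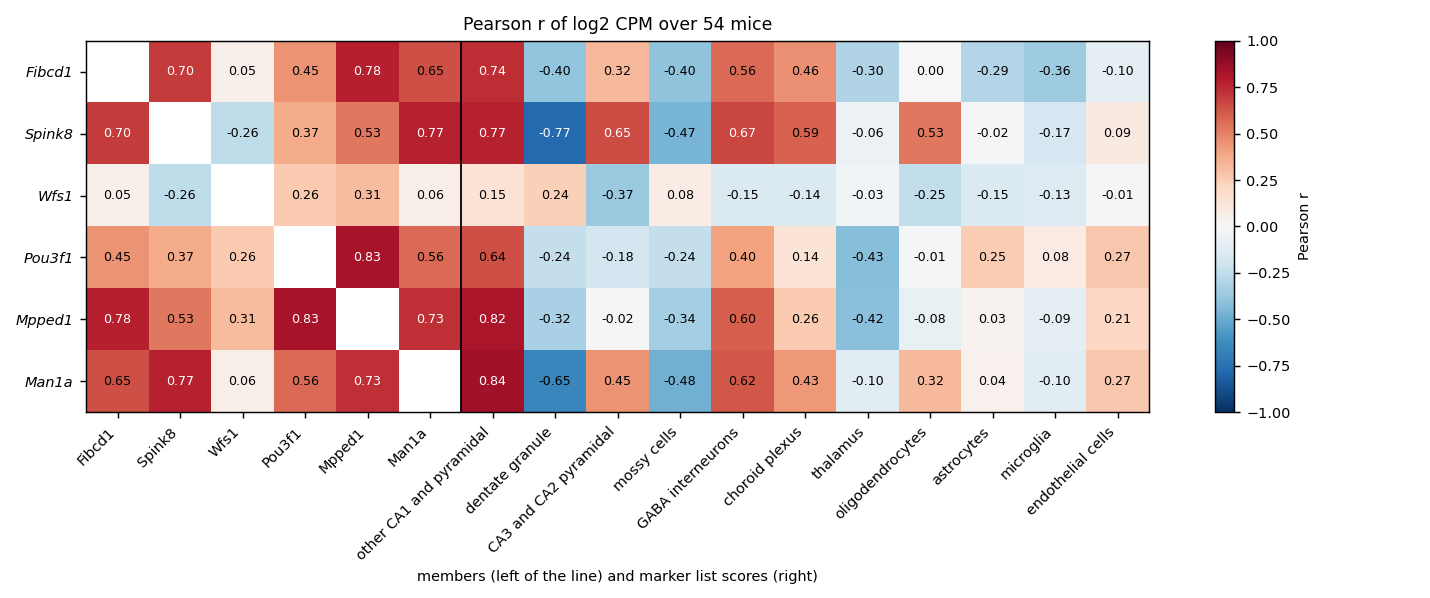
Pearson r over 54 mice between each member (rows) and the other members or the mean z-score of each marker list (columns), on a color scale from -1 to 1. The row of Wfs1 holds no r above 0.31, while the other rows share high r with the CA1 and pyramidal list (0.64 to 0.84).

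Of the library measures, the share of read pairs on no annotated exon of the counted strand fell with Spink8 (r = -0.39, adjusted permutation p = 0.0123). Read pairs per mouse rose with Spink8 (r = 0.32, adjusted permutation p = 0.0486), and this was r = 0.14 without the 2 farthest mice. With Fibcd1 they passed by rank alone (rho = 0.34, adjusted permutation p = 0.0376), as did multimapping with Spink8 (rho = 0.32, adjusted permutation p = 0.0488). Their part in the correlations was not tested.

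The genes most like the members were ranked by r with the mean z-score of the 6 genes over 54 mice, as a description of a ranking. Among the 10 highest were Gpr161 (r = 0.94), Ccn3 (0.90), Ptpru (0.87), Ankrd63 (0.87), Pde11a (0.86), Chrm5 (0.86), Gabra3 (0.86), Hs3st2 (0.84) and Meis2 (0.84). Gpr161 is an orphan receptor of cilia, and Gabra3 is a subunit of GABA-A receptors. Gpr161 ran from 14.2 over 25.2 to 51.8 CPM, and its r within groups was 0.89 to 0.98. The 3 lowest were Napepld (-0.76), a lipase of endocannabinoid-like lipids, Kcnj6 (-0.72), a potassium channel, and Ncald (-0.69), a calcium sensor.

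For single members, the gene with the highest r was Chrm5, a muscarinic receptor, for Fibcd1 (0.91), Igfbp3, a binding protein of insulin-like growth factors, for Spink8 (0.88), Meis2, a homeobox factor, for Pou3f1 (0.86), Ccn3, a secreted matrix protein, for Mpped1 (0.93), Tmem200a for Man1a (0.82) and Plekhg2 for Wfs1 (0.55). Ranked against the mean of the other 5 members among 18278 genes, Mpped1 came at 2, Man1a at 25, Fibcd1 at 35, Pou3f1 at 94 and Spink8 at 178. Wfs1 came at 6158 with an r of 0.10.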

How the data were processed

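RNA from ventral dentate gyrus punches of 54 mice was sequenced by the authors in 55 libraries with a stranded paired-end kit. Per gene, the authors deposited counts of read pairs that were not normalized. Reads of low quality were dropped and the rest aligned to GRCm38 (mm10 in the submitters' processing notes, which list STAR and Picard). The methods name featureCounts, while the layout of the tables is that written by STAR. Reverse-strand counts were used, and the forward strand held 3.51% to 4.13% of stranded counts. Unmapped (13.9% to 19.9%), multimapping (8.70% to 12.1%), unassigned (19.9% to 28.8%) and ambiguous (0.836% to 1.12%) read pairs were left out. Of 45318 identifiers, 44671 matched the annotation.

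Mice were grouped by their labels, and all were used although the methods state fewer replicates per group. Counts were scaled by TMM, filtered with filterByExpr and tested with edgeR 4.0.16 (quasi-likelihood, 6 group means, Benjamini-Hochberg over 18283 genes) in R 4.3.3. The study criterion used limma 3.58.1, and DESeq2 1.42.0 was an alternative. The count models were tested on simulated data. Correlations used log2 CPM (prior count 2) and 100000 permutations in Python 3.11.15 with numpy 2.4.6, pandas 2.3.3 and scipy 1.17.1, adjusted together over r and rho of 105 relations. Plots were drawn with matplotlib 3.10.9.

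The members and the marker lists were chosen with earlier results of these data known. Named genes were the members, the list genes, the 10 highest and 3 lowest r with the member score, and the gene of highest r with each member. Some of these are not reported here. Replicate numbers were not used to pair mice. Alternatives were another scaling, other filters, unstranded counts, other tools, a replicate block, the first run alone, a CA3 and CA2 covariate, fits of fewer groups, other transformations and each mouse left out. Depth limits Spink8 and Pou3f1 most, with median counts of 53 and 78.5 per mouse. The 95% intervals are those of a log2 difference between group means, given the spread between mice, and do not cover the range of single mice.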

Additional observations from a re-analysis of the deposited data

Results flagged for a closer look

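Among 36 sets of CPM values (6 genes in 6 groups), 3 held a mouse far from the others of its group. The rule used would flag about 1 in 20 sets of normally spread values. CPM without log need not be so spread, so no excess over chance follows, and log2 values were not screened. In SH control, mouse 3 had 129.9 CPM of Fibcd1 against 59.3 for the next mouse. The same mouse had 8.50 CPM of Spink8 against 4.13 for the next. This mouse also had the highest sum of choroid plexus markers, 978 CPM, and the part of these in its values was not tested. In EE RES, mouse 9 had 34.0 CPM of Wfs1 against 24.2 for the next, while its Spink8, at 1.04 CPM, was the lowest of that group.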

How the results depend on the processing

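The count of 0 members called at the adjusted threshold was the same under the alternatives and with each of the 54 mice left out, for the 6-group test, SUS against RES in each housing, their interaction, defeated against control and EE against SH mice. The other pairwise comparisons were not rerun. In EE, leaving out a mouse moved the SUS to RES difference of Spink8 between -0.40 and -0.0136 and that of Wfs1 between -0.22 and -0.0354. The number of genes called across the 6 groups was 183 in DESeq2 and 86 with the CA3 and CA2 score as a covariate, beside 57, and ran from 26 to 117 when mice were left out, lowest without SH RES mouse 1 and highest without EE SUS mouse 9. The cause was not tested. With the replicate number as a block, 61 genes and 0 members were called, and the SH SUS to RES difference of Pou3f1 turned from -0.07 to 0.0113. The block changed no call of a member. The numbers were not taken to pair the mice. Of 126 same-numbered pairs, 32 had deviations correlated above 0.1, with a median of 0.026 beside -0.004 for 1086 other pairs. Of 54 mice, 9 correlated best with their own number, and a shared batch was not tested. This SH difference of Pou3f1 was 0.00396 with the covariate, 0.000776 without the 6 mice of high choroid plexus markers (chosen after seeing the data), and -0.22 to 0.0323 with a mouse left out. With the covariate the SH difference of Spink8 was -0.0257 and that of Man1a -0.0724, and the difference of Man1a between defeated and control mice was -0.0471. Without the 6 mice the defeated to control differences of Fibcd1 and Spink8 were 0.0905 and 0.107, and limma-voom gave 0.0110 for Spink8. With a mouse left out they ran from -0.22 to 0.0863 for Fibcd1 (highest without SH control mouse 3), from -0.27 to 0.0691 for Spink8 (highest without EE control mouse 9) and from -0.0209 to 0.0455 for Man1a. The EE to SH difference of Wfs1 ran from -0.0230 to 0.0429. Without the 2 farthest mice, r of Wfs1 was -0.0114 with Fibcd1 and -0.0304 with Man1a. Of the 15 pairs, 11 had an unadjusted permutation p below 0.05, and 11 or 12 did under the alternatives. Of the alternative log2 differences that used all mice or left out the 6, 303 kept their sign and 9 turned, and the 72 alternative group medians moved by less than 1 SD.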
